A study of Homo sapiens with 6 samples.

Results

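H2BC5, H2BC12, H2BC21, H2BC4, H2AC6, H4C8 and H4C14 are 7 replication-dependent histone genes, 4 coding for H2B, 1 for H2A and 2 for H4. They were picked from measured values of the data described here, for a large difference in level between the compared groups, and are 7 of the 20289 genes in the deposited table. All 7 were among the 10592 genes that averaged at least 1 FPKM (a level scaled to transcript length and to library size) over the 6 libraries, and all 7 also reached 1 FPKM in the control group alone. The table holds 56 other replication-dependent genes for H2A, H2B, H3 or H4, of which 19 averaged at least 1 FPKM. Because the difference between the groups chose the 7 genes, their values are given as a description, without a test.

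RNA was sequenced from RKO, an established human colorectal cancer line, in 2 groups that share the line and the use of a short hairpin RNA: shControl, with a control hairpin (3 libraries), and shTRMT6, with a hairpin against TRMT6 (3 libraries). TRMT6 is a subunit of the enzyme that makes 1-methyladenosine in tRNA, and the study's title links that modification to the making of histones. The libraries were prepared from enriched mRNA; the way it was enriched, the strandedness and the hairpin sequences are not given in the sources used here. No label says that the replicates are separate cultures. The p-values therefore reflect library-to-library spread in a single line, which may be technical. TRMT6 itself averaged 16.4 ± 1.81 FPKM in shControl, against 1.47 ± 0.335 in shTRMT6 (SD, n = 3), 11.2-fold lower (limma adjusted p = 4.33e-08). Estimated depth was 21.2 to 28.5 M fragments (mega) in shControl and 18.2 to 20.1 M in shTRMT6. Of the epithelial markers, EPCAM, KRT8, KRT18 and CDX2 were detected in all 6 libraries, whereas CDH1, KRT19 and VIL1 were listed at 0 in all 6. Of 8 markers of other cell types, 7 stayed at or under 0.65 FPKM in every library, and ALB read 10.74 FPKM in shControl replicate 2 and at most 0.04 FPKM elsewhere.

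Replication-dependent histone genes supply the histones that package newly copied DNA, and most of their mRNA is made in S phase. Their mRNAs typically end in a short stem-loop in place of a poly(A) tail; the stem-loop is bound by SLBP and directs processing, translation and decay at the end of replication. Several of these genes are also known to give longer, polyadenylated transcripts, which are often spliced and can be made outside S phase. H2A and H2B form a dimer, and H4 pairs with H3, in the nucleosome core. In bulk RNA, fewer cells of a kind (here, for instance, cells in S phase) and less RNA per cell cannot be told apart.

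The stem-loops are printed because the non-polyadenylated form of these mRNAs typically ends in one. Their presence alone does not mark that form, since some annotated transcripts hold a stem-loop and also run on to a poly(A) signal. A hairpin of the histone type was found in a GENCODE release 29 transcript of 6 of the 7 genes, and each is given as DNA letters, with the hairpin in capitals and the 5 bases on either side in lower case.
H2BC5: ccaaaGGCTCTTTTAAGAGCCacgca
H2BC21: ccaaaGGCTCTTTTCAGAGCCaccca
H2BC4: ccaaaGGCTCTTTTAAGAGCCaccca
H2AC6: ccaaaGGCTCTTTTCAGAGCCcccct
H4C8: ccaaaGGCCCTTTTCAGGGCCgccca
H4C14: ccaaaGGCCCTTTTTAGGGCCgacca
H2BC5 and H2BC4 had the same hairpin, as did H2BC21 and H2AC6, while the H4 hairpins differed from those and from each other in a few letters. The hairpin started 36 bases after the stop codon in H4C14, 37 in H2BC5 and H2BC4, 42 in H4C8, 44 in H2AC6 and 57 in H2BC21. The model of H2BC12 has 381 bases and stops at the end of the coding sequence, so that it could not hold a stem-loop behind the stop codon. In the 54 other family genes found in that annotation, 26 had a match to such a hairpin, and 25 were likewise coding sequence only. The counts overlap, since the search covered whole transcripts and also matched within a coding-only model. Such a match is not a hairpin behind the stop codon.

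The same annotation holds transcripts that end near a poly(A) signal for most of the 7. A poly(A) signal (AATAAA or ATTAAA) lay within the last 50 bases of an annotated transcript in 6 of the 7 genes, all but H2BC12. Among the 54 other family genes, 17 had such a signal, as did 10 of the 19 tested ones. The 25 coding-only models of the 54 could not hold one behind the coding sequence, which limits a comparison with the 7. A spliced transcript was annotated for 5 of the 7 (H2BC5, H2BC4, H2AC6, H4C8 and H4C14). The same held for 8 of the 54 and for 4 of the 19 tested ones. H2BC5 illustrates the arrangement: its transcript of 496 bases has 1 exon and carries the hairpin, with AATAAA just behind it, while its transcript of 789 bases is spliced shortly after the stop codon and lacks it. H2BC4 follows the same plan, with an unspliced transcript of 571 bases holding the hairpin and a spliced one of 659 bases ending in ATTAAA. H2BC21 has a single transcript, of 2194 bases and 1 exon, with a hairpin near the coding sequence and AATAAA 24 bases before its end. H2AC6, H4C8 and H4C14 have spliced transcripts that keep the hairpin within the first exon and run on to a poly(A) signal. Those of H4C14 are all annotated as nonsense mediated decay, as are some of those of H2AC6 and H4C8. The deposited values are 1 per gene, so the share of each form was not measured.

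**Figure D1:**
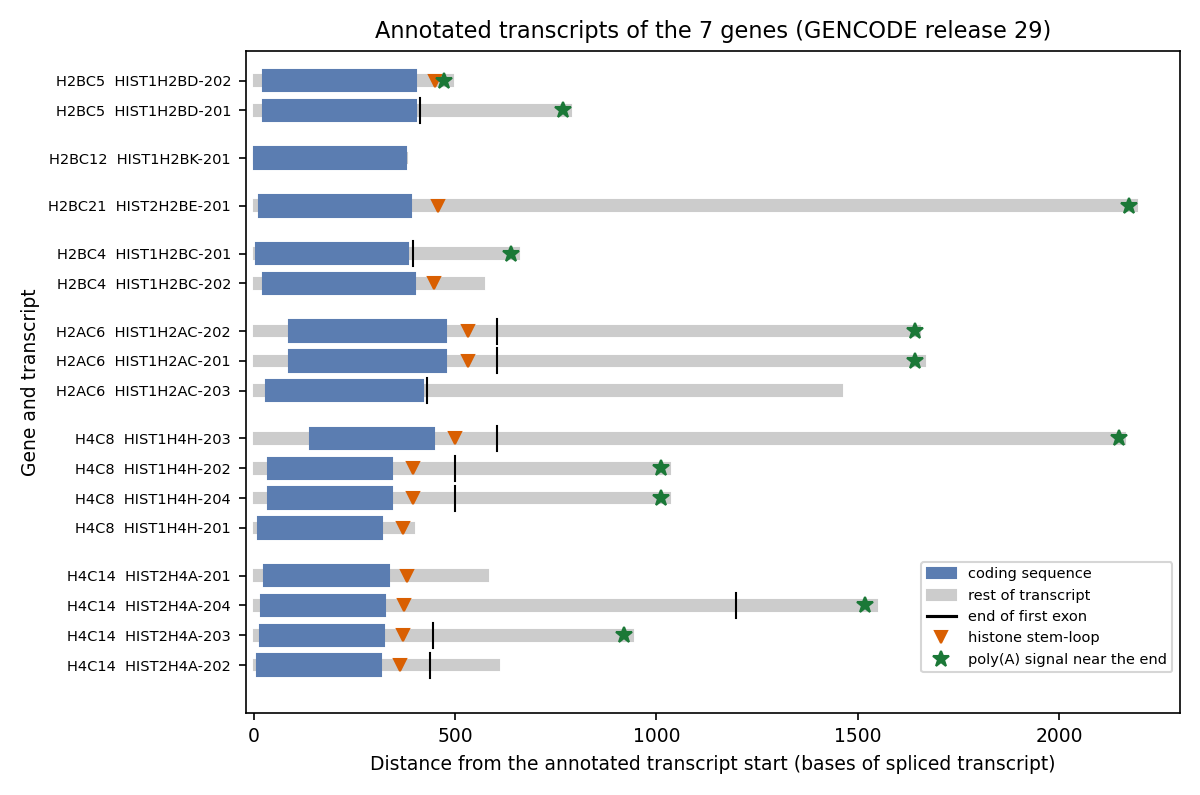
Annotated transcripts of the 7 genes in GENCODE release 29, drawn from the transcript start (x axis, bases of spliced transcript), with coding sequence in blue, the rest in grey, the end of the first exon as a black line, the histone stem-loop as an orange triangle and a poly(A) signal near the transcript's end as a green star. Stars appear for 6 genes, and H2BC12 alone has neither triangle nor star.

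All 7 genes read higher in every shTRMT6 library than in any shControl library, an arrangement found in 26.2% of the 10592 genes; since the members were picked for it, nothing is read from that count. Over all tested genes, 19.3% were called higher and 16.1% lower in shTRMT6 (limma adjusted p under 0.05). The median log2 fold change of the 7 genes, on the log2(FPKM + 1) scale, was 1.89, against 0.0241 over all tested genes, and their median ratio of mean FPKM was 5.24. Summed over the 7 genes, the level was 40.42, 41.0 and 35.71 FPKM in shControl replicates 1, 2 and 3 and 240.0, 240.3 and 203.3 FPKM in shTRMT6 replicates 1, 2 and 3. The sum was thus 5.84-fold higher in shTRMT6, and replicate 3 was the lowest library of both groups. H2BC12 made up 52.4% ± 2.15 (SD, n = 3) of the sum in shControl and 58.5% ± 2.31 (SD, n = 3) in shTRMT6.

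**Figure D2:**
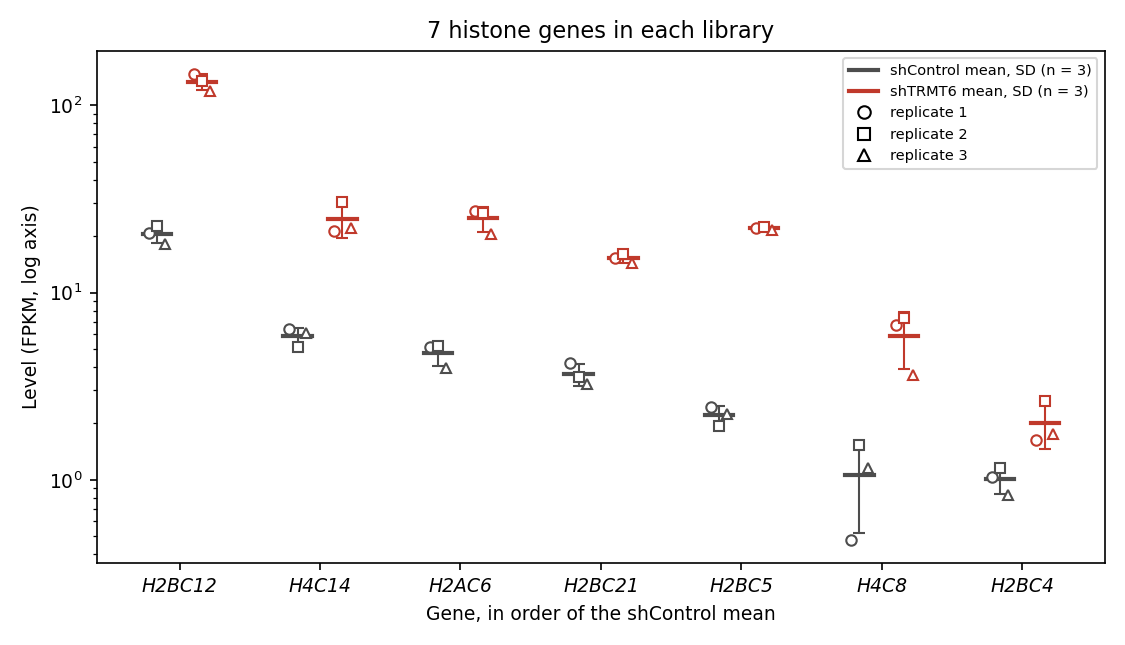
Level of each of the 7 genes (y axis, FPKM on a log axis) in the 6 libraries, with genes in order of their shControl mean; points are libraries, with a symbol for each replicate number, bars are means and whiskers are SD (n = 3). The groups do not overlap for any of the 7 genes, and the gap is widest for H2BC5 and narrowest for H2BC4.

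The H2B genes spanned the whole range of differences. H2BC5 (ENSG00000158373, HIST1H2BD; chromosome 6, bases 26158146 to 26171349, plus strand, in GENCODE release 29 on GRCh38) read 2.45, 1.94 and 2.24 FPKM in shControl, against 22.1, 22.49 and 21.5 in shTRMT6. The shTRMT6 libraries were nearly level, and the lowest of them was 8.78 times the highest shControl library. Its mean went from 2.21 ± 0.256 to 22.0 ± 0.499 FPKM (SD, n = 3), a 9.97-fold ratio and a log2 fold change of 2.85 (SE 0.11), the rank 2 value of the 10592 genes.

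H2BC12 (ENSG00000197903, HIST1H2BK; chromosome 6, bases 27146418 to 27146798, minus strand) was the most abundant of the 7 in all 6 libraries. It read 20.77, 22.51 and 18.22 FPKM in shControl, against 145.81, 134.78 and 119.25 in shTRMT6. Its mean was 20.5 ± 2.16 and 133 ± 13.3 FPKM (SD, n = 3), a 6.50-fold ratio, and its log2 fold change was 2.64 (SE 0.11). Of the 75-base windows of its model, 50.5% occur in another gene, mostly in other H2B copies, so part of its level depends on how shared reads were assigned.

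H2BC21 (ENSG00000184678, HIST2H2BE; chromosome 1, bases 149884459 to 149886652, minus strand) lies in the histone cluster of chromosome 1. It read 4.22, 3.54 and 3.25 FPKM in shControl, against 15.23, 16.03 and 14.44 in shTRMT6. The ratio of its means, 3.67 ± 0.498 and 15.2 ± 0.795 FPKM (SD, n = 3), was 4.15, with a log2 fold change of 1.80 (SE 0.12). Only 4.95% of its windows were shared with another gene.

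H2BC4 (ENSG00000180596, HIST1H2BC; chromosome 6, bases 26114873 to 26123926, minus strand) had the lowest mean of the 7 in each group, although it overlapped H4C8 in shControl, and the smallest difference. It read 1.03, 1.16 and 0.83 FPKM in shControl, against 1.64, 2.62 and 1.75 in shTRMT6, where replicate 2 stood above the other two. The means were 1.01 ± 0.166 and 2.0 ± 0.537 FPKM (SD, n = 3), a 1.99-fold ratio, and the log2 fold change was 0.57 (SE 0.15). The description of the 7 as the histone genes that rose most does not hold for H2BC4: 700 of all tested genes and 14 of the 19 other tested family genes had a larger log2 fold change, and 14 of the 19 a larger ratio of means. Nor is it strict for the other members. H2AC19 (log2 fold change 1.99) stood above H4C14, H2BC21 and H4C8. H2BC8 averaged 0.483 ± 0.0577 and 3.60 ± 0.436 FPKM (SD, n = 3), a ratio of 7.45, which among the 7 only H2BC5 exceeded. At the estimated depth and annotated transcript lengths, the shControl mean of H2BC4 corresponds to only 14 to 16 fragments per library.

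H2AC6 (ENSG00000180573, HIST1H2AC; chromosome 6, bases 26124145 to 26139116, plus strand) was the only H2A gene of the 7. It read 5.11, 5.18 and 3.96 FPKM in shControl, against 27.35, 26.69 and 20.58 in shTRMT6. Replicate 3 was the lowest library in both groups, and same-numbered libraries gave ratios between 5.15 and 5.35. Its mean was 4.75 ± 0.685 FPKM in shControl and 24.9 ± 3.73 FPKM in shTRMT6 (SD, n = 3), 5.24-fold higher, with a log2 fold change of 2.17 (SE 0.13). None of its windows was shared with another gene.

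H4C8 (ENSG00000158406, HIST1H4H; chromosome 6, bases 26277609 to 26285638, minus strand) read 0.48, 1.54 and 1.16 FPKM in shControl, against 6.71, 7.33 and 3.61 in shTRMT6. Its coefficient of variation, 50.7% in shControl and 33.9% in shTRMT6, was the largest of the 7 in each group, and the ratios of same-numbered libraries were 4.76 and 3.11 for replicates 2 and 3 and higher for replicate 1, whose shControl value is the lowest. The means were 1.06 ± 0.537 and 5.88 ± 1.99 FPKM (SD, n = 3), a 5.55-fold ratio, and the log2 fold change was 1.73 (SE 0.23). Its shControl mean corresponds to about 10 to 57 fragments per library, depending on the transcript.

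H4C14 (ENSG00000270882, HIST2H4A; chromosome 1, bases 149832659 to 149839767, plus strand) read 6.36, 5.13 and 6.05 FPKM in shControl, against 21.18, 30.33 and 22.13 in shTRMT6. Replicate 2 was the lowest of the shControl libraries and the highest of the shTRMT6 libraries. Its mean was 5.85 ± 0.64 FPKM in shControl and 24.5 ± 5.03 FPKM in shTRMT6 (SD, n = 3), with a log2 fold change of 1.89 (SE 0.14). H4C14 has a near-identical copy, H4C15 (HIST2H4B), with which 96.2% of its windows are shared, so the level of either gene alone is uncertain. The 2 genes added together averaged 6.74 ± 0.339 FPKM in shControl and 28.5 ± 3.13 FPKM in shTRMT6 (SD, n = 3), 4.23-fold higher. Of the exon bases of H4C14, 173 (9.22%) overlap H3C14 on the opposite strand, and H3C14 averaged 0.637 ± 0.085 FPKM in shControl and 1.19 ± 0.085 FPKM in shTRMT6 (SD, n = 3).

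The order of the levels differed between the groups. In shControl, H2BC12 stood above all others, followed by H4C14, H2AC6 and H2BC21, each of which overlapped the next over the 3 libraries, then by H2BC5, and last by H4C8 and H2BC4, which overlapped each other. In shTRMT6, H2BC12 was again highest; H2AC6, H4C14 and H2BC5 followed with overlapping ranges, and H2BC21, H4C8 and H2BC4 came after them without overlap between neighbours. H2BC5 therefore moved from below H2BC21 in all 3 shControl libraries to above it in all 3 shTRMT6 libraries. In shTRMT6, replicate 3 held the lowest value for 5 of the 7 genes and replicate 2 the highest for 5.

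The members differed in how much of the summed FPKM of their histone class they made up. These are shares of the deposited values and do not measure supply in the cell. The part of mRNA enrichment in these sums was not tested. Over the 18 H2B genes, summed FPKM averaged 32.2 ± 1.64 in shControl and 188 ± 14.8 in shTRMT6 (SD, n = 3). The 4 H2B members made up 84.9% ± 3.65 and 91.6% ± 0.412 of that sum. Over the 15 H4 genes, the sum averaged 26.8 ± 2.38 and 49.4 ± 6.03 FPKM, a 1.85-fold ratio. H4C8 and H4C14 together made up 26% ± 3.47 of that sum in shControl and 61.5% ± 9.3 in shTRMT6. H4C14 shares 96.2% of its windows with H4C15, which is not a member, so the H4 share also depends on how shared reads were assigned. H2AC6 made up only 5.78% ± 0.561 and 8.01% ± 1.03 of the H2A sum, which was 82.0 ± 8.0 FPKM in shControl and 310.0 ± 7.37 FPKM in shTRMT6. Since the members were picked for their rise, their larger shares in shTRMT6 follow from the choice. The 13 H3 genes hold no member, and their sum averaged 5.15 ± 0.86 and 13.2 ± 1.06 FPKM.

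Among the 19 other tested family genes, 15 were higher and 2 lower in shTRMT6 by the limma fit, beside the 19.3% and 16.1% over all tested genes, and their median log2 fold change was 1.23. These genes were left after the 7 had been taken out for their size, so their lower median follows from the choice. Several of the 15 higher ones averaged under 1 FPKM in shControl, down to 0.42 FPKM. Those passed the filter only through their shTRMT6 values, so the filter itself favours higher calls and the count of 15 leans that way. H2AC18 read 11.47, 9.25 and 0 FPKM in shControl, against 23.15, 53.07 and 59.16 in shTRMT6. Its log2 fold change of 3.09 (SE 0.69, limma adjusted p = 0.00417) rests in part on the library listed at 0: without shControl replicate 3 it was 1.92, below the 2.85 of H2BC5, the 2.56 of H2BC12 and the 2.06 of H2AC6 in the same fit. All of its windows are shared with other H2A copies, and the call was lost when genes of any level were tested (limma adjusted p = 0.0664). H2AC19, its near-identical copy, averaged 44.7 ± 5.41 and 180 ± 18.7 FPKM (SD, n = 3), with a log2 fold change of 1.99 (limma adjusted p = 2.76e-07). H2BC11 averaged 1.07 ± 0.145 and 5.63 ± 0.799 FPKM (SD, n = 3), with a log2 fold change of 1.67 (limma adjusted p = 4.73e-06). The annotation gives this H2B gene a spliced transcript and a poly(A) signal near a transcript end.

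The exceptions in the family included an H4 gene that was more abundant than either H4 member in every shControl library. H4C11 read 15.66, 14.86 and 14.17 FPKM in shControl, against 13.04, 10.3 and 6.34 in shTRMT6, a log2 fold change of -0.59 (SE 0.18, limma adjusted p = 0.0221). Over 15 alternatives its adjusted p ran from 0.000101 to 0.113, and the call was lost without a filter on low values, with a correction for GC content, without shControl replicate 1 (0.0694) and without shTRMT6 replicate 3 (0.0636). Of its windows, 79.6% are shared with another H4 copy, H4C12, so its level depends on how shared reads were assigned. H2AC20 was the other lower gene and is described with its neighbour H2BC21. H2BC13 (log2 fold change -0.08, SE 0.18, limma adjusted p = 0.773) and H4C12 (-0.07, SE 0.51, limma adjusted p = 0.931) did not pass.

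**Figure D3:**
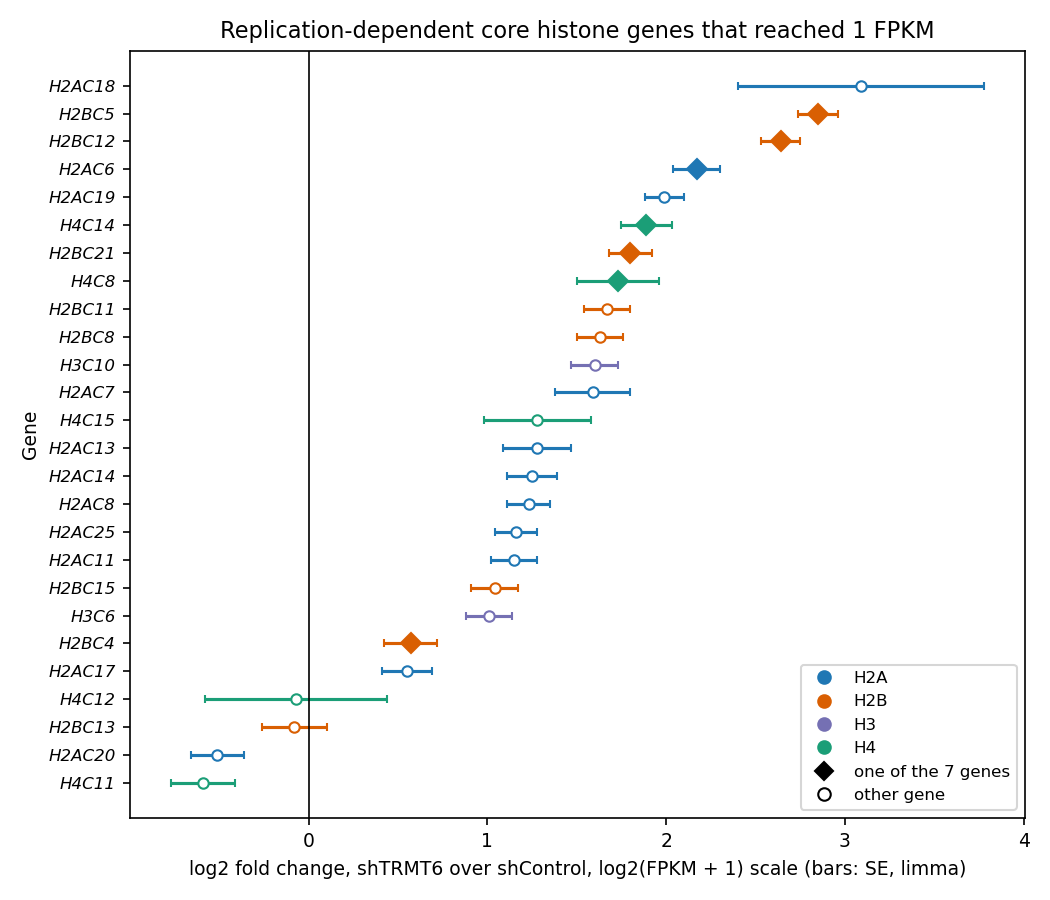
log2 fold change of shTRMT6 over shControl on the log2(FPKM + 1) scale (x axis; bars are the SE of the limma fit) for the 26 tested replication-dependent core histone genes (y axis), coloured by class; filled diamonds are the 7 genes described here, open circles the other 19. Of the 7 genes, 6 sit between 1.73 and 2.85, H2BC4 sits at 0.57, and H2AC20 and H4C11 lie on the negative side.

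The other family genes had close medians with and without an annotated poly(A) signal. The 10 tested ones with such a signal had a median log2 fold change of 1.22, with 9 higher and 1 lower, and the 9 without one had a median of 1.23, with 6 higher and 1 lower. The 4 with a spliced transcript had a median of 1.16 and the 15 without one 1.23. Of the 19 genes, 5 are coding sequence only in the annotation, and all 5 count as without a signal and without a spliced transcript. Their models could not hold a signal behind the coding sequence, so these medians do not compare genes with and without a polyadenylated form. How mRNA was enriched is not stated, and its part in the levels of genes with and without a polyadenylated form was not tested.

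Upstream sequences are shown because the 7 genes were all higher in shTRMT6 and histone classes carry known, class-specific promoter elements. The octamer ATTTGCAT is bound by POU2F1 (OCT1) in H2B promoters, and GGTCCG is the core of the element bound by HINFP in H4 promoters. The sequences come from RefSeq (GRCh38.p14), in which all 7 genes were found by symbol, and end at the base before the RefSeq transcript start, which for H2BC12 lies upstream of the coding-only GENCODE model. Capitals mark the octamer on either strand or its nearest match in the H2B and H2A genes, and GGTCCG in the H4 genes.
H2BC5 (chr6:26158001-26158120, plus strand): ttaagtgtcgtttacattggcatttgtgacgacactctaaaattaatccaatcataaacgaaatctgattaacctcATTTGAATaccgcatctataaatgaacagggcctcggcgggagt
H2BC12 (chr6:27146859-27146978, minus strand): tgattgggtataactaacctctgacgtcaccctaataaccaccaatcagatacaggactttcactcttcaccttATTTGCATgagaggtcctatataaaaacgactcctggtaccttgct
H2BC21 (chr1:149886683-149886802, minus strand): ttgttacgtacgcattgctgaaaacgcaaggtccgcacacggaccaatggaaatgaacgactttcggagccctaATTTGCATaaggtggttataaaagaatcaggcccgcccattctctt
H2AC6 and H2BC4, the stretch between their starts (chr6:26123927-26124171, plus strand): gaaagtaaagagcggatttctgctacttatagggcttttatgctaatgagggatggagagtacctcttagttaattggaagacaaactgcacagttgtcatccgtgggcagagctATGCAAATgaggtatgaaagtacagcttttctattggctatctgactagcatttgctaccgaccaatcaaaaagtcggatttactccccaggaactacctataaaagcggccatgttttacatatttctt
H4C8 (chr6:26285535-26285654, minus strand): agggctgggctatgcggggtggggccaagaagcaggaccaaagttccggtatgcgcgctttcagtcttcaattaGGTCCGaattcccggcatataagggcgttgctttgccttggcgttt
H4C14 (chr1:149832537-149832656, plus strand): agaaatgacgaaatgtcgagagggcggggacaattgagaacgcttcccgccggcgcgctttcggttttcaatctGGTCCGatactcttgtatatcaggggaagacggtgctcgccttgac
H2BC12 and H2BC21 had an exact octamer beginning at position -46 from the start. H2BC5 had its nearest match, ATTTGAAT, at almost the same place, position -44, with the substitution C6A counted from 1 at the octamer's 5′ end. H2AC6 and H2BC4 share a single octamer in the stretch between them, on the strand of H2BC4, beginning at position -123 from the H2BC4 start.

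Over the windows of 250 bases before to 50 after the start, the octamer (ATTTGCAT or its reverse complement ATGCAAAT) was in 4 of the 7 genes, in 14 of 18 H2B promoters, 11 of 16 H2A promoters, 0 of 13 H4 promoters and 1.8% of all 27305 promoters. CCAAT, on either strand, was in the 5 H2A and H2B members, in 16 of 16 H2A, 18 of 18 H2B and 3 of 13 H4 promoters, and in 35.7% of all promoters. GGTCCG, on either strand, was in H4C8, H4C14 and H2BC21, in 12 of 13 H4 promoters and in 11.2% of all promoters. TATAA, searched on the gene's own strand in the last 50 bases before the start, was in all members but H4C14. It was in 15 of 16 H2A, 10 of 18 H2B and 10 of 13 H4 promoters, and in 5.12% of all promoters. The H2BC21 window is the 1 member window in which a reverse copy of GGTCCG overlaps a CCAAT. These matches are descriptions of letters. Binding of any factor was not measured.

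Some of the 7 genes share their upstream stretch with another histone gene. H2AC6 and H2BC4 start 219 bases apart in GENCODE release 29 and face away from each other, and the ratio of means was 5.24 for H2AC6 and 1.99 for H2BC4. H2BC21 has H2AC20 head to head at 323 bases. H2AC20 read 3.36, 3.25 and 2.7 FPKM in shControl, against 1.61, 2.56 and 1.57 in shTRMT6, without overlap between the groups and in the direction opposite to H2BC21. Its mean was 1.62-fold lower in shTRMT6, with a log2 fold change of -0.51 (SE 0.15, limma adjusted p = 0.0189). Over 14 alternatives that p ran from 0.0027 to 0.0822, and the call was lost under 5: without a filter on low values, with the GC correction, without shControl replicate 1 (0.0523), without shTRMT6 replicate 1 (0.0822) and without shTRMT6 replicate 3 (0.0707). Of the windows of H2AC20, 23.7% are shared with H2AC18 and H2AC19. H2BC12 has H2AC12 head to head at 331 bases, which read at most 0.31 FPKM in any library and was not tested, and MIR3143 at 828 bases, for which no value was used here. H2BC5, H4C8 and H4C14 have no annotated head-to-head neighbour within 1000 bases.

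**Figure D4:**
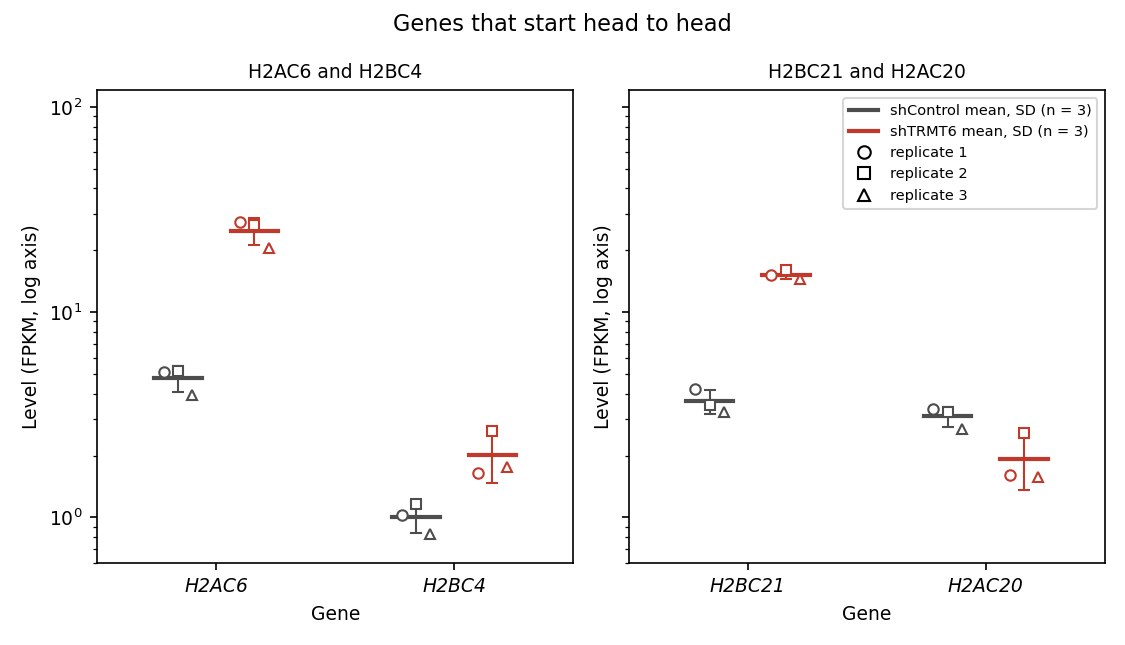
Levels (y axis, FPKM on a log axis) of 2 pairs of histone genes that start head to head, H2AC6 with H2BC4 and H2BC21 with H2AC20; points are libraries, bars are means and whiskers are SD (n = 3). H2AC6, H2BC4 and H2BC21 are higher in every shTRMT6 library, and H2AC20 is lower in every one.

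The H2B members code for closely related sequences. Over 378 coding bases, identity between pairs of the 4 ran from 89.4% (H2BC5 and H2BC21) to 92.6% (H2BC5 and H2BC4), while H4C8 and H4C14 were identical at 83.2% of 309 bases, with 52 differences. Stretches of 75 identical bases were nonetheless rare outside H2BC12 and H4C14: at most 4.95% of the windows of the other 5 members were shared with any gene, and none for H2AC6 and H4C8.

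The 5 tested genes with the most similar values to the mean profile of the 7 (smallest root mean square distance of log2(FPKM + 1) from the shControl mean, over 6 libraries) were AOX1, ENSG00000285901, RRM2B, H2AC19 and H2BC11. They were chosen for this pattern, so no test is given. The distance was 0.0927 for AOX1, an aldehyde oxidase, which averaged 1.20 ± 0.227 FPKM in shControl and 7.70 ± 1.01 FPKM in shTRMT6 (SD, n = 3). It was 0.127 for RRM2B, a subunit of a ribonucleotide reductase that acts outside S phase, which averaged 9.53 ± 1.45 and 37.9 ± 3.41 FPKM (SD, n = 3). It was 0.113 for ENSG00000285901, which had no symbol in the tables used, 0.171 for H2AC19 and 0.218 for H2BC11. The mean profile of the 7 genes was 1.97, 2.11 and 1.77 above the shControl mean, in log2 units, in shTRMT6 replicates 1, 2 and 3.

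The genes that read, process and store histone mRNA and protein moved in both directions. Among 42 tested S phase genes, 24 (57.1%) were lower and 1 (2.38%) was higher in shTRMT6, beside 16.1% and 19.3% over all tested genes. Their median log2 fold change was -0.351. GINS1, part of the replicative helicase, averaged 18.8 ± 0.284 FPKM in shControl and 8.76 ± 0.629 FPKM in shTRMT6 (SD, n = 3; log2 fold change -1.02, limma adjusted p = 3.2e-05), and POLD1, which holds the active site of DNA polymerase delta, averaged 36.8 ± 4.84 and 18.5 ± 1.21 FPKM (log2 fold change -0.95, limma adjusted p = 9.13e-05). So the 7 histone genes were higher in the libraries in which most called S phase genes were lower.

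Of 16 tested regulators of histone gene transcription, 3 were higher and 4 lower. The lower ones included the cell cycle factors E2F1 (log2 fold change -0.73, limma adjusted p = 0.000482) and E2F2 (-0.70, limma adjusted p = 0.000791). Of 21 tested factors for processing of histone mRNA ends, 4 were higher and 2 lower (4 and 6 with the replicate number as a block in the fit). CPSF3, the endonuclease that cuts histone pre-mRNA, was higher (log2 fold change 0.63, limma adjusted p = 0.000941) and SRRT (ARS2) was lower (-0.51, limma adjusted p = 0.00148). The shares called higher in these 2 lists, 18.8% and 19%, were close to the 19.3% over all tested genes. SLBP, chosen after its values were seen, averaged 57.4 ± 0.895 FPKM in shControl and 53.2 ± 4.89 FPKM in shTRMT6 (SD, n = 3), a difference that did not pass (log2 fold change -0.11, SE 0.10, limma adjusted p = 0.4).

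Of 18 other tested cleavage and polyadenylation factors, 3 were higher and 2 lower (4 and 4 with the block), among them CSTF3 (log2 fold change 0.54, limma adjusted p = 0.00471) and NUDT21 (CFIm25; -0.65, limma adjusted p = 0.000625). Of 18 tested histone mRNA decay factors, 4 were higher and 1 lower (4 and 2 with the block). They included ERI1, the exonuclease that trims the stem-loop end (log2 fold change 0.44, limma adjusted p = 0.0107, lost with the GC correction at 0.053), and the RNA helicase MTREX (0.47, limma adjusted p = 0.0276, range 0.000721 to 0.113 over 15 alternatives; lost under 5, among them without shControl replicate 1 at 0.0893, without shTRMT6 replicate 1 at 0.0653 and without shTRMT6 replicate 2 at 0.113). The shares called higher in these 2 lists, 16.7% and 22.2%, lie near the 19.3% of all tested genes.

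Of 14 tested chaperones and importers of H2A and H2B, 4 (28.6%) were higher and 2 (14.3%) lower (6 and 4 with the block). Over all tested genes the shares were 19.3% and 16.1%. NPM1 was among the higher ones (log2 fold change 0.38, limma adjusted p = 0.0193), a call lost under 6 of 15 alternatives, where p reached 0.154. These 6 include the fits without shControl replicate 1 (0.0553), shTRMT6 replicate 1 (0.0722) and shTRMT6 replicate 2 (0.0978). The importin IPO9, which carries H2A and H2B to the nucleus, was lower (-0.47, limma adjusted p = 0.00334). Of 18 tested chaperones of H3 and H4, 1 (5.56%) was higher and 6 (33.3%) lower (1 and 10 with the block). ASF1B (-0.83, limma adjusted p = 0.000145) and TONSL (-0.72, limma adjusted p = 0.000381) were the lowest. Of 13 tested genes for adding ubiquitin to H2B or removing it, 7 (53.8%) were higher and 0 lower (8 higher and 1 lower with the block). The genes called higher were of both kinds, so the count does not give a direction for the modification. The higher ones included the PAF1 complex subunits CDC73 (0.57, limma adjusted p = 0.00844, lost without a filter on low values at 0.0527) and CTR9 (0.56, limma adjusted p = 0.00303).

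Other histone kinds moved in both directions. Of only 3 tested linker histone genes, 1 (33.3%) was higher and 2 (66.7%) lower, beside 19.3% and 16.1% over all tested genes. Among the linker histones, H1-2, itself a replication-dependent gene, averaged 73.1 ± 12.8 FPKM in shControl and 161 ± 15.2 FPKM in shTRMT6 (SD, n = 3; log2 fold change 1.14, limma adjusted p = 4.27e-05). The replication-independent linker gene H1-10 was lower, with a log2 fold change of -0.52 (limma adjusted p = 0.00985, lost without a filter on low values at 0.0576). Of 8 tested replacement histone genes, 2 (25%) were higher and 1 (12.5%) lower (2 and 2 with the block), beside 19.3% and 16.1% over all tested genes. H3-3B, which codes for H3.3, averaged 334 ± 7.8 FPKM in shControl and 210.0 ± 15.2 FPKM in shTRMT6 (log2 fold change -0.67, limma adjusted p = 0.000195), whereas H3-3A, the other H3.3 gene, named after its values were seen, was higher (log2 fold change 0.50, limma adjusted p = 0.00111). MACROH2A2 was also higher (0.59, limma adjusted p = 0.000517).

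**Figure D5:**
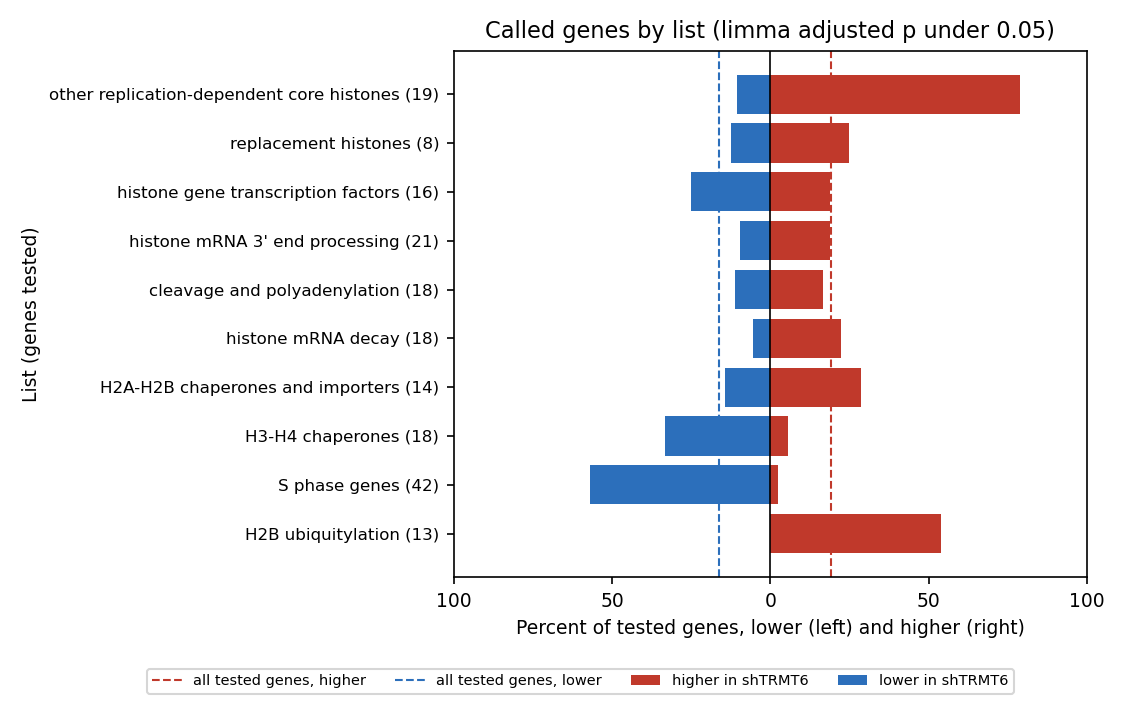
Share of tested genes called higher (red, right) or lower (blue, left) in shTRMT6 by the limma fit (x axis, percent) in 10 gene lists (y axis, number tested in brackets); dashed lines are the shares over all tested genes, 19.3% and 16.1%. The other replication-dependent histones and the H2B ubiquitylation genes extend furthest to the higher side among these 10 lists, and the S phase genes furthest to the lower side. Several of the other replication-dependent histones passed the filter only through their shTRMT6 values. The H2B ubiquitylation list holds genes that add ubiquitin and genes that remove it. Linker histones are not drawn.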

How the data were processed

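RNA-seq libraries of RKO cells (3 shControl, 3 shTRMT6) were compared. Values deposited by the authors are in FPKM, 1 for each gene in each library. Tools in the submitters' processing notes are RSEM, HISAT2, StringTie 1.3.1, Bowtie2 2.2.8 and fastp 0.18.0, with no roles given; build and annotation are not given in the sources used here. Groups and replicate numbers came from sample titles; the table's columns use other abbreviations of the groups and were matched by them and by number. The 10592 genes averaging 1 FPKM or more entered a two-sided limma fit (version 3.58.1, R 4.3.3) of log2(FPKM + 1) values. The prior variance followed a trend, p-values were adjusted by Benjamini-Hochberg, and the threshold was 0.05. This scale understates changes of low genes. The model was tested on simulated data. Depth is only a rough estimate, from the smallest steps of low values with GENCODE release 29 lengths; 118 identifiers are not in that annotation.

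The 7 genes and all lists were chosen with earlier results of these data known. Genes named are the members, TRMT6, head-to-head neighbours within 1000 bases, up to 3 called genes at each end of the other family genes, up to 2 called genes of each further list, and the 5 most similar genes. SLBP, H3-3A, H3C14, H4C15, H2BC8 and the uncalled family genes H2BC13 and H4C12 were named after their values were seen. KRT18 (log2 fold change 0.66, limma adjusted p = 0.00053) and EPCAM (0.50, limma adjusted p = 0.0282) were the called epithelial markers. The EPCAM call was lost when genes of any level were tested (0.111) and without shControl replicate 1 (0.086), shTRMT6 replicate 2 (0.114) or shTRMT6 replicate 3 (0.0691). Deviations from the group means correlated, between same-numbered libraries, at 0.206, 0.364 and 0.17 across genes, and at -0.288 to 0.0936 between others. These correlations are weak, and deviations within a group sum to 0, so the values depend on each other and do not establish pairs. Same-numbered libraries were treated as possible pairs, from these data and not from the labels. The main limma fit, which gave the calls, had no replicate term and so ignored this possible pairing. The possible pairing entered a fit only as the replicate block. Alternatives were other pseudocounts, filters and scalings, a GC correction, a replicate block, and leaving out each library. Some genes of the lists are not reported here.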

Additional observations from a re-analysis of the deposited data

How the results depend on the processing

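Under 15 alternatives, the 7 genes gave 103 log2 fold changes between 0.43 and 3.27; 95 moved by less than 1 SD between replicates, 8 by more, and 0 changed sign. Their median of 1.89 was 2.36 with a pseudocount of 0.1, 2.04 with 0.5 and 2.17 for genes averaging at least 5 FPKM, where only 5 of the 7 were left; it ran from 1.77 (without shTRMT6 replicate 2) to 2.0 when libraries were left out in turn. H2AC6 was at 1.94 with the GC correction. The 15 higher and 2 lower other family genes became 3 and 1 at a mean of at least 5 FPKM, where 4 were tested. The lower count was 0 with the GC correction, 1 without a filter on low values and 0 to 2 with a library left out (0 without shControl replicate 1 or shTRMT6 replicate 3, 1 without shTRMT6 replicate 1); the higher count was 15 with the GC correction and with each library left out, and 21 of 47 when genes of any level were tested. Over all genes, 2042 were higher and 1704 lower; leaving out a library gave 1295 to 2027 and 1112 to 1731, with 1305 and 1295 higher without shTRMT6 replicates 1 and 2, and 1112 lower without the latter. With the replicate block, 2702 were higher and 2252 lower, with 15 and 2 of the other family genes and a member median of 1.89; with block and GC correction, 2548 and 2552, 15 and 2, and 1.94. The block also gave 28 in place of 24 lower S phase genes and 5 in place of 4 lower transcription regulators, and it called ALB, the marker seen mainly in 1 shControl library (log2 fold change -1.17, limma adjusted p = 0.00216, against 0.185 without the block). Apart from these and the list counts given with the block in the text, it ended no call of a named gene. Low depth limits H2BC4 and H4C8 most.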
